A study of Homo sapiens and Mus musculus with 25 samples.

Results

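Chemical modification of unfolded hFAST RNA was compared, base by base, with the mutation background of the same RNA. Members were the nucleotides of hFAST read at least 1000 times in both the denatured modified library and the DMSO library, which left 525 of 547 nucleotides, from nucleotide 12 to nucleotide 536. These 2 libraries are 2 of the 25 samples of a study of the long noncoding RNA FAST in H9, an established human embryonic stem cell line, and in R1 cells. In the DMSO library, H9 cells received the solvent without reagent for 10 min at 37 °C before RNA was isolated. In the library abbreviated DC, RNA of H9 cells was held in 50% formamide at 95 °C and then treated with a SHAPE reagent, whose dose for this library the labels do not give. Neither library carries an allele, a transgene or a knockdown in its labels. Each treatment had 1 library and no replicate, so every test of reads compares 2 libraries and not 2 conditions.

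SHAPE-MaP reads RNA flexibility. A SHAPE reagent acylates the 2′-hydroxyl of riboses that can move freely, which bases held in helices mostly cannot, and reverse transcription in the presence of manganese turns the adduct into a mutation in the cDNA. Reverse transcriptase and PCR make mutations without any adduct, and the solvent library measures that background. The denatured library measures how a base reacts and is read when folding no longer limits it, and it is the divisor in the usual SHAPE-MaP reactivity. FAST is a name of FOXD3-AS1, a long noncoding RNA transcribed beside FOXD3, the gene of a forkhead transcription factor of pluripotent cells. The first 50 nucleotides of the probed RNA were identical to the first 50 transcribed bases of FOXD3-AS1 in the RefSeq promoter table (GRCh38.p14, chr1:63322409-63322458, minus strand), the only entry of that table to end so.

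The stretches that carry the contrast are printed 5′ to 3′ with U written as T, numbered from the 5′ end of hFAST. The first set shows the 6 largest rises by ratio among nucleotides that passed the test, each with 10 bases on either side and the nucleotide itself in capitals.
nucleotide 425: tgtggatttaAttccggatgg
nucleotide 382: cgagaggaaaTaattagtgaa
nucleotide 198: gcggagcgggTggaggaggcg
nucleotide 488: gatctcctctTtccttggcct
nucleotide 386: aggaaataatTagtgaaatat
nucleotide 443: tggacagtggTgcttctgatt

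The second set shows the largest rises by difference of the rates, in the same layout. It is shown because these sites have a high rate in both libraries, unlike most of the first set.
nucleotide 283: ggtgtggcagGcacacggaac
nucleotide 141: gcccagggagCgggtgtggac
nucleotide 123: ctggatccggGccctggggcc
nucleotide 75: cggggcacggAgggcgctgcg

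The last set shows the largest falls by ratio, again with the nucleotide in capitals.
nucleotide 164: atcctccaagAtttaacttcc
nucleotide 508: tagacacaccAaaaataattc
nucleotide 302: acccaatcccTgtctgtccgc
nucleotide 178: aacttccaagAaaaccggcgg

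The libraries had similar depth. Reads per member ran from 1268 to 37034 in DMSO (median 15317) and from 1320 to 38326 in DC (median 17086), and DC was 1.01 to 1.24 times as deep as DMSO at every member. With 0 mutated reads the limit on a rate was 0.0196% at the median DMSO depth and 0.0176% at the median DC depth, and 0.237% and 0.227% at the lowest depths. The read minimum fell in a steep drop at both ends of the RNA. Nucleotide 11, just outside, had 107 DMSO and 69 DC reads, while nucleotide 12, just inside, had 32636 and 33914. At the 3′ end, nucleotide 536 had 1268 and 1320 reads and nucleotide 537 had 47 and 35. None of the 22 nucleotides left out passed the test. The reads carry no molecular identifiers, so all intervals of rates are 95% Wilson intervals that cover counting error only.

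Denaturation and modification went with a small shift of the whole profile and large changes at a minority of bases. The rate was higher in DC at 120 members, and at 53 it was lower (Fisher's exact test on mutated and unmutated reads, two-sided, Benjamini-Hochberg adjusted p under 0.05 over all 547 nucleotides, of which 21.9% were higher and 9.69% lower). The remaining 352 members did not pass. The middle of the profile moved little, since the median rate was 0.324% in DMSO (quartiles 0.178% and 0.580%) and 0.376% in DC (0.212% and 0.625%). Over the members, the median of the log2 ratio (DC over DMSO), with 0.5 mutated reads added to each library, was 0.09 (95% interval 0.03 to 0.18, from order statistics over nucleotides, which are not independent replicates). The ratio was above 0 at 295 members and below 0 at 230. At the 120 that rose, the median rate was 0.261% in DMSO and 0.582% in DC, and at the 53 that fell it was 0.663% and 0.385%. The counts depend on the rule and the depth: they were 61 and 17 with a Bonferroni correction, 60 and 10 with at least a 2-fold change, and 17 and 1 with each rate kept and each depth set to 5000 reads.

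**Figure D1:**
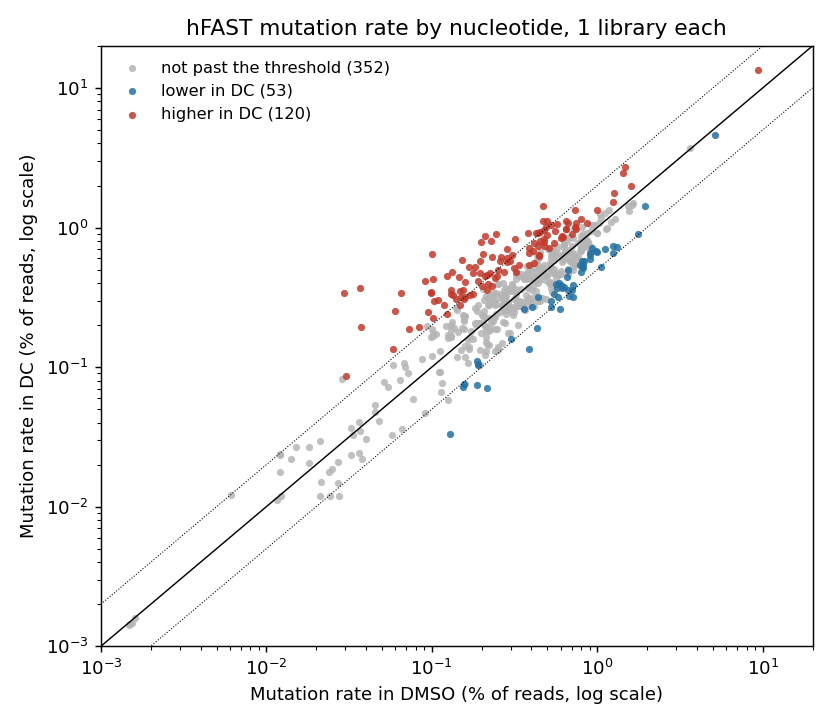
Mutation rate of each of the 525 members in the DMSO library (horizontal, % of reads, log scale) and in the DC library (vertical, same scale), coloured by the Fisher test, with members at 0 drawn at 0.5 reads; the solid line marks equal rates and the dotted lines a 2-fold difference. The 120 red points spread further from the line at low rates than at high ones, which the test partly fixes, since only large ratios can pass it at low rates. The point at the top right is nucleotide 283 (9.43% and 13.4%).

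The largest rises by ratio started from a very low background. Nucleotide 425, the second A of a pair of A residues in a T-rich stretch, was mutated in 6 of 20310 DMSO reads (0.0295%, interval 0.0135 to 0.0644%) and in 71 of 20880 DC reads (0.340%, 0.270 to 0.429%). Its log2 ratio was 3.42 ± 0.59 (counting SE) with an adjusted p of 2.63e-13 in Fisher's exact test. Nucleotide 382, a T between A residues, had 5 mutated reads of 13662 in DMSO (0.0366%) and 51 of 13896 in DC (0.367%). The intervals of the 2 libraries were far apart at both sites. Nucleotide 198, a T between G residues, rose from 0.0997% (0.0583 to 0.170%) to 0.650% (0.535 to 0.790%), a log2 ratio of 2.66 ± 0.42. Nucleotide 488, the middle T of a run of 3, rose from 0.0652% to 0.339%, nucleotide 386, also a T, from 0.0373% to 0.193%, and nucleotide 443, a T between G residues like 198, from 0.0908% to 0.414%. The 10 members with the largest ratios had DMSO rates between 0.0295% and 0.208%. The other 4 were the A residues 153, 181 and 420, with log2 ratios of 2.03 at each, and the G at 303, with 1.99. Thus 9 of the 10 were A or T, bases that make up 63 of the 120 members that rose and 214 of the 525 members. A and T also had the lower background, with a median DMSO rate of 0.157% against 0.477% at G and C.

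The largest rises by difference of the rates lay elsewhere and included G and C. Nucleotide 283, the second G of a pair, had the highest DMSO rate of the members at 9.43% (8.95 to 9.94%, 1250 of 13253 reads) and also the highest DC rate at 13.4% (12.9 to 13.9%, 2132 of 15899 reads). It gained 3.98 percentage points, although its log2 ratio was 0.51 ± 0.05 (adjusted p = 6.62e-24 in Fisher's exact test). Nucleotide 141, a C between G residues, gained 1.25 points, from 1.47% (1.30 to 1.67%) to 2.72% (2.49 to 2.97%). Nucleotide 123, the last G of a run of 3, gained 1.04 points, from 1.43% to 2.47%. Nucleotide 75, an A between G residues, combined a large ratio with a large difference, from 0.468% (0.389 to 0.563%) to 1.42% (1.28 to 1.57%), with the lowest adjusted p of the table (7.61e-26, Fisher's exact test). The other 6 gained between 0.597 and 0.660 points: the A residues 106 and 153, the C residues 79 and 62, the T at 42 and the G at 303. Nucleotides 153 and 303 were in both lists.

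Falls were fewer, with a median difference of -0.251 percentage points at the 53 that fell against 0.274 at the 120 that rose. The largest by ratio, at nucleotide 164, an A between G and T, went from 17 mutated reads of 13224 (0.129%, 0.0803 to 0.206%) to 5 of 15083 (0.0331%, 0.0142 to 0.0776%). Its log2 ratio was -1.86 ± 0.71 and its adjusted p 0.0189 in Fisher's exact test. Nucleotide 508, the first A of a run of 5, went from 0.215% to 0.0712%, and nucleotide 302, a T, from 0.386% to 0.134%. The other 7, the A residues 178 and 476, the C residues 133, 270 and 22 and the G residues 197 and 129, had log2 ratios from -1.29 to -1.04. Among the 10 largest falls by ratio 5 were A or T, against 12 of the 53 that fell and 214 of the 525 members. Of these 10, 4 lay outside homopolymer runs, against 16 of the 53 that fell. The share among the 10 is near that of all members outside runs (43.6%), while the share among the 53 is below it. The highest background rates did not move one way. Nucleotide 486, a C, fell from 5.17% (4.92 to 5.43%) to 4.59% (4.35 to 4.83%), the G residues 131 and 325 fell from 1.94% to 1.42% and from 1.77% to 0.895%, and nucleotide 507, a C at 3.65% in DMSO and 3.70% in DC, did not pass (adjusted p = 0.883 in Fisher's exact test).

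By base, the ratio was above that of all members at A and T. The values that follow are descriptions, with no test of one class against another. The median log2 ratio was 0.36 at the 127 A residues (interval 0.03 to 0.52) and 0.32 at the 87 T residues (0.10 to 0.48), against 0.08 at the 145 C residues (-0.07 to 0.20) and -0.03 at the 166 G residues (-0.11 to 0.06). The share that rose was 26.8% of A, 33.3% of T, 18.6% of C and 18.1% of G, against 22.9% of all members. The share that fell was 4.72% of A, 6.90% of T, 13.8% of C and 12.7% of G, against 10.1% of all members. A and T had the lower background: the median DMSO rate was 0.147% at A and 0.213% at T, against 0.440% at C and 0.525% at G. In DC the medians were 0.175%, 0.297%, 0.461% and 0.497%, so the order of the bases was the same in both libraries. Pooling the reads of each base gave 0.126% in DMSO and 0.189% in DC at A, 0.312% and 0.412% at T, 0.580% and 0.602% at C, and 0.630% and 0.649% at G. At G the pooled rate was above background in DC while the median log2 ratio was below 0. Without the 2 highest DMSO rates, nucleotides 283 and 486, the pooled G rate was 0.591% in DMSO and 0.587% in DC. When the members were split into 3 groups of equal size by the mean of their 2 rates, a choice made after the data were seen, the median of A and T was above that of G and C by 0.03 in the lowest group, 0.61 in the middle and 0.38 in the highest, against 0.32 over all. With each depth set to 5000 reads, 3.20% of A, 4.60% of T, 3.45% of C and 2.41% of G rose.

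Members were also grouped by the length of the homopolymer run, a stretch of identical bases, that held them, and the balance of rises and falls differed between the groups. Of the 229 members outside runs, 75 rose (32.8%) and 16 fell (6.99%), and their median log2 ratio was 0.27 (0.13 to 0.38). Of the 162 in runs of 2, 29 rose and 11 fell, with a median of 0.12 (-0.03 to 0.21). In runs of 3 or more, of 134 members 16 rose (11.9%) and 26 fell (19.4%), with a median of -0.14 (-0.29 to -0.03). The excess of falls there came from C (6 rose and 11 fell) and G (3 and 11), while 4 A residues rose and 2 fell, and 3 T residues rose and 2 fell. With each depth set to 5000 reads, 11 members outside runs rose and none fell, and 3 in runs of 2 rose and none fell. In longer runs 3 rose and 1 fell. With only 1 fall left among all members, that setting cannot show whether the excess remained. Each base had a median below 0 in runs of 3 or more, at -0.14 for A, -0.12 for T, -0.11 for C and -0.23 for G, and the interval excluded 0 at G alone (-0.45 to -0.03). From pooled rates the log2 ratio in these runs was 0.26 for A, 0.06 for T, -0.06 for C and -0.19 for G, so A and T took the other sign. Many of the 34 A residues in such runs lie after nucleotide 509, where rates were low in both libraries. The median DMSO rate of the 34 was 0.0390%, and the interval of their median log2 ratio was -0.56 to 0.46. What the A residues after nucleotide 509 add to the negative A median was not tested. Outside runs the medians were 0.50 for A (0.27 to 0.78), 0.40 for T (0.06 to 0.83), 0.25 for C (0.05 to 0.48) and 0.00 for G (-0.08 to 0.18). The median was below 0 at each place within a long run. It was -0.20 at the 39 members at the 5′ end of such a run (4 rose and 8 fell), -0.07 at the 57 inside (8 and 9) and -0.27 at the 38 at the 3′ end (4 and 9).

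**Figure D2:**
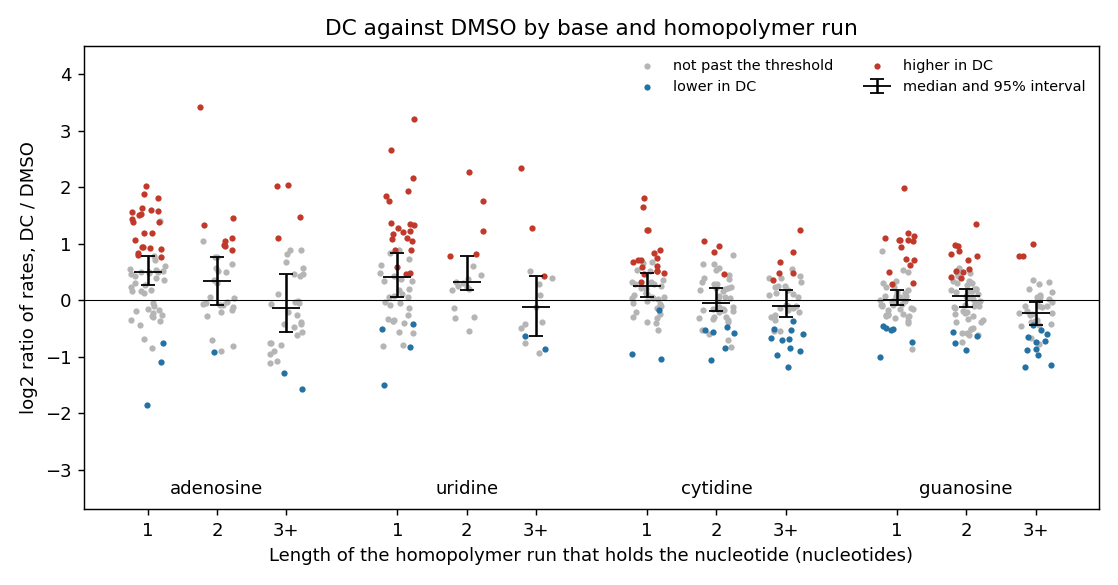
log2 ratio of the DC to the DMSO rate (vertical) for each member, by base and by the length of the homopolymer run that holds it (horizontal, nucleotides), coloured by the Fisher test; bars give the median and its 95% interval from order statistics. The medians of A run from 0.50 outside runs to -0.14 in runs of 3 or more (interval -0.56 to 0.46), and those of G from 0.00 to -0.23.

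The long runs were not alike. Of 38 runs of 3 or more bases, 25 had a lower pooled rate in DC than in DMSO, 20 held at least 1 member that fell, 12 at least 1 that rose and 7 held both. All 3 C residues of the run at nucleotides 132 to 134 fell, and its pooled rate went from 0.560% to 0.294%. The longest run, 7 C residues at nucleotides 99 to 105, had 2 members that fell and none that rose, at 0.942% in DMSO and 0.783% in DC. Against these, 2 of 3 G residues rose at nucleotides 121 to 123, where the pooled rate went from 0.876% to 1.37%, and 2 of 4 A residues rose and 1 fell at nucleotides 178 to 181, at 0.139% and 0.245%. The G run at 121 to 123 and the C run at 132 to 134, which changed in opposite directions, lie in the same GC-rich stretch.

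Neighbouring bases were compared outside runs, where the neighbour is never the same base, a restriction set after the data were seen. With a G on the 5′ side, 35 of 81 members rose (43.2%) and 3 fell, and the median log2 ratio was 0.48 (0.29 to 0.67). It was 0.16 with an A, 0.14 with a C and 0.10 with a T, and the intervals of these 3 included 0. On the 3′ side, G and T stood above A and C. The median was 0.50 with a G (0.32 to 0.72, 32 of 82 rose) and 0.56 with a T (0.29 to 0.87, 18 of 40 rose), against 0.03 with an A and 0.02 with a C. These groups differ in their own bases, since each lacks the base of its neighbour. G and C made up 71.4%, 28.3%, 35.8% and 87.5% of members with A, C, G and T on the 5′ side. On the 3′ side they made up 82.6%, 45.9%, 23.2% and 72.5%. The part of this mix in the differences between neighbours was not tested. Among single bases, A had the highest median in each panel of the plot by neighbour. Of 36 A residues after a G, 18 rose and the median was 0.77 (0.31 to 1.18). Of 32 A residues before a G, 12 rose and none fell, with a median of 0.53 (0.27 to 0.95), and of 11 before a T, 7 rose, with a median of 1.18 (-0.05 to 1.82). The 18 A residues before a C had a median of -0.17 (-0.31 to 0.49). C residues after a G had 12 of 29 that rose and none that fell, and T residues before a G had 12 of 31 that rose and 1 that fell. Outside runs as a whole, 22 of 61 A residues (36.1%), 17 of 53 C residues (32.1%) and 21 of 54 T residues (38.9%) rose. The shares that rose among A before a G (37.5%) and T before a G (38.7%) were near those of their base. Over all members, runs included, the 5′ medians were 0.20 with A (0.06 without nucleotides 401 to 450), 0.00 with C, 0.20 with G and 0.04 with T, and the 3′ medians were -0.05, 0.06, 0.15 and 0.32.

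**Figure D3:**
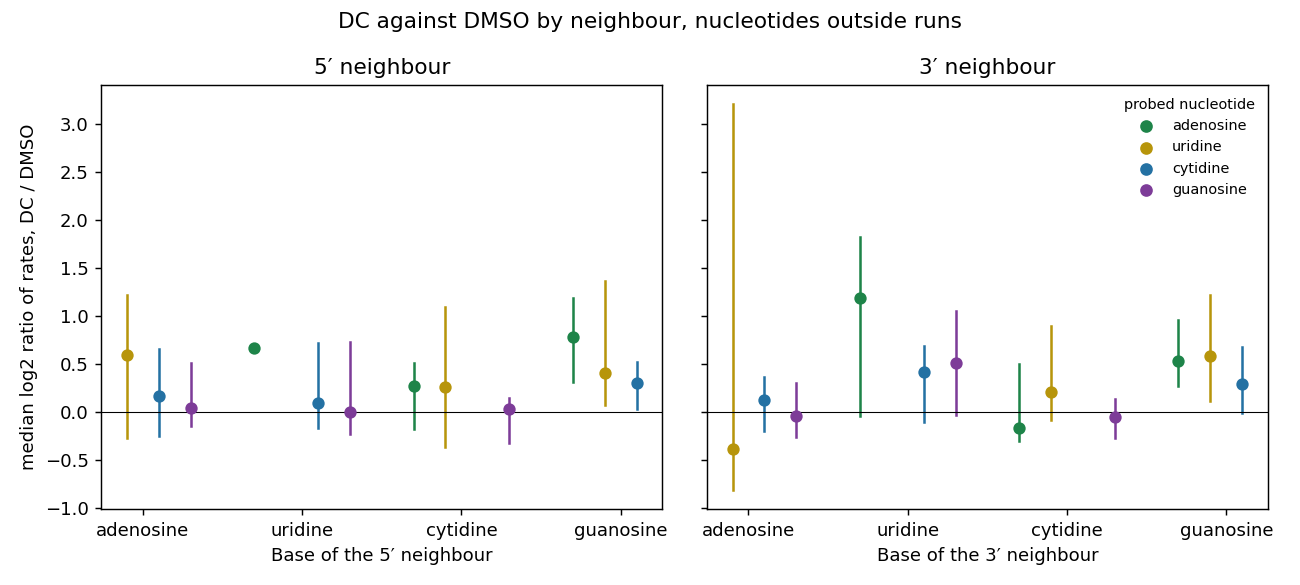
Median log2 ratio of the DC to the DMSO rate (vertical) of members outside homopolymer runs, by the base on the 5′ side (left) and on the 3′ side (right) and by the probed base (colour); lines give the 95% interval from order statistics, which 4 A residues after a T are too few to have. A residues after a G (0.77) and before a T (1.18) have the highest medians of their panels, and the interval of the second includes 0.

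By the GC content around a member, the medians of A and T differed more than those of G and C. GC content was taken over the 10 bases on each side, without the base itself, and the members were put into 3 groups of similar size (0 to 55%, 60 to 70% and 75 to 95%). Over all bases the medians were 0.07, 0.08 and 0.11, and the first was -0.05 without nucleotides 401 to 450. At A and T they were 0.23 (-0.03 to 0.47), 0.31 (-0.09 to 0.47) and 0.59 (0.23 to 0.94), and 28 of 111, 15 of 63 and 20 of 40 members rose. The value in the lowest group depended on which stretch was included: it was 0.02 without nucleotides 401 to 450 and 0.38 without those after nucleotide 509. Leaving out homopolymer runs gave 0.48, 0.34 and 0.84 (0.49 to 1.11), and 19 of 33 such A and T residues in the group of highest GC content rose. At G and C the medians were -0.02, 0.06 and -0.03, each of which took the other sign with GC content over 5 bases on each side, and in the highest group 20 of 104 rose and 21 fell. Of the 144 members in the highest group, 84 lay at nucleotides 51 to 150, as did 16 of its 40 A and T residues.

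**Figure D4:**
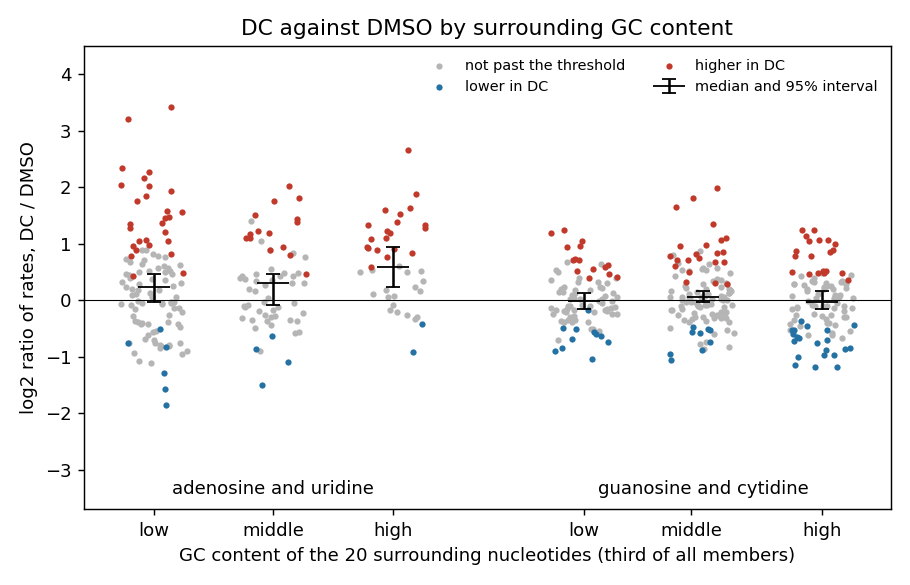
log2 ratio of the DC to the DMSO rate (vertical) for each member, by group of GC content (low, middle, high) of the 20 surrounding bases (horizontal), for A and U residues (left) and G and C residues (right), coloured by the Fisher test; bars give the median and its 95% interval. The A and U medians are 0.23, 0.31 and 0.59, while those of G and C stay between -0.03 and 0.06.

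Pairing was taken from the minimum free energy structure of the sequence alone, which holds 162 base pairs and was not measured in these libraries. The 318 paired members had a median log2 ratio of 0.05 (-0.04 to 0.12), with 68 that rose and 40 that fell, and the 207 unpaired members had 0.20 (0.06 to 0.34), with 52 and 13. Rises made up 21.4% of paired and 25.1% of unpaired members, both near the 22.9% of all members. Falls made up 12.6% and 6.28%, against 10.1% of all members. At A and T the medians were 0.36 for paired and 0.31 for unpaired residues. At G and C they were -0.01 and 0.15.

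Along the RNA, rises were spread over most of its length. In consecutive segments of 50 nucleotides, the highest medians were 0.41 at nucleotides 401 to 450 (0.14 to 0.62), where 19 members rose and none fell, and 0.34 at 201 to 250 (0.06 to 0.72), where 15 rose and 1 fell. Segment 51 to 100, with the highest GC content, also had 19 that rose, with 6 that fell and a median of 0.24 (0.03 to 0.48). Of the 39 members at nucleotides 12 to 50, 3 rose and 7 fell, with a median of -0.11 (-0.35 to -0.05), and no member rose before nucleotide 41. The upper limit of that interval is the value of nucleotide 14. Nucleotides 12 to 14 had no mutated read in either library, so their ratios come from the depths and the added 0.5 reads alone. The interval without them was not computed, so it does not show that the segment lay below 0. The median DMSO depth of that segment, 36616 reads, was the highest of the segments. With each depth set to 5000 reads, 2 of its members rose and none fell. The most rises (4) were then at 101 to 150, against 2 at 51 to 100, 2 at 401 to 450 and 1 at 201 to 250. Only 17 members rose and 1 fell over the whole RNA at that depth, too few to order the segments. Nucleotides 101 to 150 and 451 to 500 held both kinds of change, with 12 that rose and 10 that fell, and 14 and 10, and medians of 0.20 and 0.12. The other segments had medians from -0.13 to 0.19. Of these, nucleotides 251 to 300 had a median of -0.05 and a log2 ratio of pooled rates of 0.18, and they include nucleotide 283, while 351 to 400 had -0.13 and 0.07, with 13 members that rose and 2 that fell. The segment at the 5′ end and the 2 with the highest medians are printed with the nucleotides that rose in capitals, to show how the rises lie in the sequence.
nucleotides 1 to 50: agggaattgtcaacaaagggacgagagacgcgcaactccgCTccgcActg
nucleotides 201 to 250: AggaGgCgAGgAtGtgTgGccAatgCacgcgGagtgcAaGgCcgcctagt
nucleotides 401 to 450: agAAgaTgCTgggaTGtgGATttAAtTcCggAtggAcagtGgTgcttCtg

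**Figure D5:**
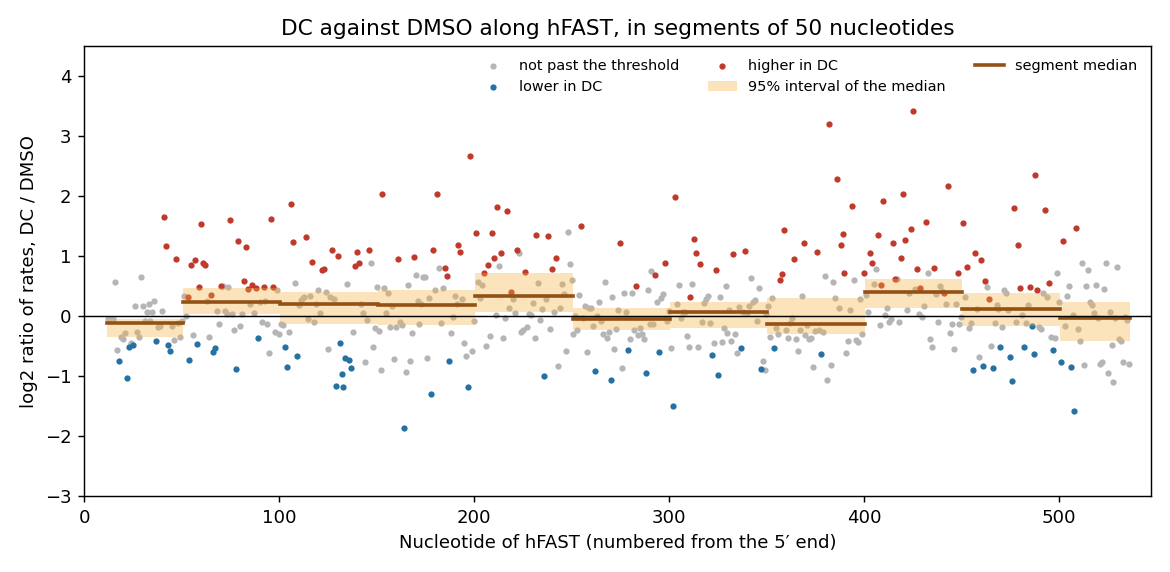
log2 ratio of the DC to the DMSO rate (vertical) against the position in hFAST (horizontal, nucleotides from the 5′ end), coloured by the Fisher test; brown lines give the median of each segment of 50 nucleotides and the shaded boxes its 95% interval. The segment median is highest at 401 to 450 (0.41), and no member after nucleotide 509 passed the test.

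The last nucleotide to pass was 509, and none of the 27 members after it did. This 3′ stretch is made of 20 A, 6 T and 1 C, and its rates were low in both libraries. The pooled rate was 0.0454% in DMSO (374 mutated reads) and 0.0441% in DC (370 mutated reads), at depths from 1268 to 33276 reads in DMSO. It is printed with no capitals, because no member in it passed.
nucleotides 510 to 536: aaataattcaataaaataaaaataaaa

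Some opposite changes lay side by side. Among the 524 pairs of adjacent members, 23 had 1 member that rose beside 1 that fell, 13 with the fall first and 10 with the rise first. They involved 22 of the 120 members that rose and 20 of the 53 that fell. In 27 pairs both rose and in 10 both fell. The shares of all members that rose and fell, multiplied over these pairs, give 24.2 opposite pairs, 27.4 with both higher and 5.34 with both lower, so the number of opposite pairs is near that background and is no result in itself. Of the 23 pairs, 6 joined identical bases. At nucleotides 487 and 488, neighbouring T residues, the rates went from 0.570% to 0.368% and from 0.0652% to 0.339%, and their sum from 0.635% to 0.707%. At 130 and 131, both G, they went from 0.477% to 0.956% and from 1.94% to 1.42%, and the sum from 2.42% to 2.38%. At 485 and 486, a T and a C, the sum was 6.43% in DMSO and 6.34% in DC. At 197 and 198 the sum went from 0.695% to 0.912%, and at 476 and 477 from 0.381% to 0.868%. Each pair was chosen as a rise beside a fall, so a sum that changes less than its parts is largely fixed by that choice. The log2 ratio of the sum was smaller in size than those of both members in 21 of the 23 pairs. In 13 pairs it was at most 0.25 in size. Both bases of a pair are in capitals.
nucleotides 487 and 488: cgatctcctcTTtccttggcct
nucleotides 130 and 131: cgggccctggGGcccagggagc
nucleotides 485 and 486: cacgatctccTCtttccttggc
nucleotides 197 and 198: ggcggagcggGTggaggaggcg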

How the data were processed

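SHAPE-MaP of hFAST was read as 1 table of 547 nucleotides. The authors deposited read depth as counts per nucleotide, without normalization, and the mutation rate as a fraction of those reads. Per the file headers, the table has a background and a denatured (dc) library. The background was taken as DMSO from the protocol wording and from the header's formula, since that name is not in the header. The 2 other per-sample columns, of the reagent library, were not used. Per the labels' protocols, reverse transcription with manganese and primers for hFAST was followed by nested PCR. The build hg19 and the tools Bowtie2 2.1.0 and bcl2fastq 2.17.1.14 are listed, per the submitters' processing notes. The mutation counter and the rule for placing ambiguous mutations are not given in the sources used here.

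Mutated reads were obtained by rounding rate times depth, which lay within 0.0186 of whole numbers. Reads at each nucleotide were compared by a two-sided Fisher's exact test, adjusted over 547 nucleotides by the Benjamini-Hochberg method with a threshold of 0.05. Log2 ratios had 0.5 mutated reads added. Medians have exact 95% order-statistic intervals over nucleotides. Depth of at least 1000 reads was required, and a count of 0 was read as up to 3 counts. Pairing came from ViennaRNA 2.7.2. Named nucleotides were the 10 largest rises by ratio, rises by difference and falls by ratio among those past the threshold, the 5 highest DMSO rates and those nearest the depth minimum. The runs and the adjacent pairs described, and the nucleotides 509 and 41, were chosen after their values were seen. Members, classes and rules were chosen with earlier results of these data known. Python 3.11.15, numpy 2.4.6, scipy 1.17.1, pandas 2.3.3 and matplotlib 3.10.9 were used, and the functions were tested on simulated data. Alternatives were other depth minimums, corrections, pseudocounts, run and window lengths, pooled rates and members left out.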

Additional observations from a re-analysis of the deposited data

How the results depend on the processing

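Of 352 class values on the log2 scale under alternatives, 21, in 10 classes whose reported medians lay within 0.13 of 0, took the other sign, 6 of them with pooled rates (at G, 0.04 against a median of -0.03). This tally did not cover every class, and some classes outside it changed sign from larger medians. At A in runs of 3 or more the median was -0.14 and the log2 ratio of pooled rates 0.26. At the 8 T residues before an A outside runs they were -0.38 and 0.76. The number of nucleotides higher in DC was 120 as reported, 61 with a Bonferroni correction, 60 with at least a 2-fold change and 17 with each depth set to 5000 reads. The number lower was 53, 17, 10 and 1. Of the 32 named nucleotides, 18 lost their call at 5000 reads and 6 with Bonferroni. At A the log2 ratio was 0.58 from pooled rates against a median of 0.36. The median of A and T was above that of G and C by 0.0318 in the group of lowest mean rate and by 0.61 in the middle group, against 0.32 over all. These groups, and leaving out nucleotides 401 to 450 (101 higher, 53 lower), were chosen after seeing the data, and the cause of these shifts was not tested. No paired analysis was possible because each SHAPE-MaP treatment has 1 library. Depth limits the calls: at the lowest DMSO depth, 1268 reads, a count of 0 allows a rate of 0.237%.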

Other observations

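The depth of the libraries was set beside the ratios in 3 groups of the members, a split made after the data were seen. In the group of lowest depth 37 of 175 members rose and 13 fell, with a median log2 ratio of 0.09 (95% interval -0.10 to 0.25). In the middle group 45 rose and 14 fell (0.16, 0.06 to 0.29), and in the deepest 38 rose and 26 fell (0.03, -0.08 to 0.12). The shares that rose, from lowest to highest depth, were 21.1%, 25.7% and 21.7%, near the 22.9% of all members. The shares that fell were 7.43%, 8.00% and 14.9%, against 10.1% of all members. The number of falls was thus highest where reads were most numerous, and its relation to depth was not tested.

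Run length was also set beside the mean of the 2 rates. In the middle of 3 groups by that mean, 33 of 78 members outside runs rose (42.3%) and 5 fell, with a median log2 ratio of 0.49 (0.22 to 0.71). In the same group, 4 of 70 in runs of 2 rose and 4 fell, with a median of 0.03, and 3 of 27 in runs of 3 or more rose and 8 fell, with a median of -0.35 (-0.63 to 0.14). In the highest group the medians were 0.14 outside runs, 0.20 in runs of 2 and -0.11 in runs of 3 or more (-0.24 to 0.06). In the lowest group they were 0.16, 0.31 and -0.27 (-0.49 to 0.11). The median in long runs was below 0 in all 3 groups, but each interval included 0. In the lowest group the log2 ratio of pooled rates in long runs was 0.0009. The long runs of the 3 groups also held different bases. G and C made up 2.22% of their members in the lowest group, 85.2% in the middle and 98.4% in the highest. In the lowest and highest groups the median in runs of 2 was above that outside runs.

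The rates of the 2 libraries followed each other closely along the RNA. Across the 525 members, the log2 rates had a Pearson r of 0.895 and a Spearman rho of 0.821, given as a description because the points share the RNA, its base composition and the amplification protocol. Nucleotides 283 and 486 were the highest of both libraries.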
